A study of Mus musculus with 18 samples.

Results

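Gene expression in sorted microglia from embryos of dams injected with PBS was set against that from embryos of untreated (UT) dams. This injection control and the uninjected control made up 10 of the 18 arrays of the series, 4 labelled PBS and 6 labelled UT, chosen by those labels. All of these embryos were wild type apart from the reporter named next, of C57BL/6 background and taken at E17.5. Their sex is unknown. Pooled hippocampi were digested with trypsin and DNase, and FACS collected the cells that were positive for Cx3cr1-GFP, a reporter carried by both controls. RNA was pooled per pregnant dam, amplified with the Ovation Pico WTA v2 kit and hybridized to Affymetrix mouse genome arrays. No source used here gives the route, dose or timing of the PBS injection. The labels end in a year, and the arrays are called by it here: 1 is PBS_2013, 2 are PBS_2010, 1 is PBS_2008, 4 are UT_2013 and 2 are UT_2012. PBS_2013 is therefore the only PBS array with untreated arrays of its own year, and no source used here says what the years mark. The other arrays of the series were 4 from dams given lipopolysaccharide (LPS) and 4 from DAP12KO embryos, and they entered the fits only to estimate the spread.

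Microglia are the resident macrophages of the brain. They arise from yolk sac progenitors, settle in the embryonic brain and take up dying cells and synaptic material. They express the fractalkine receptor Cx3cr1, which also marks macrophages of the meninges, perivascular space and choroid plexus (border macrophages) and some blood monocytes. PBS is the saline vehicle of an injection and contains no inflammatory agent, but handling and injection can raise maternal stress hormones such as glucocorticoids. Cells sorted from an embryonic hippocampus can carry along RNA of neurons, progenitors, meningeal cells or blood.

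Values are log2 expression levels, so that a difference of 1 is a doubling. The lowest value on every array was 2.19, and a value under 2.49, the 40th percentile of the mean levels of all probe sets, is called near the floor. Values near the floor have no order, and a fold against 4 such UT arrays is given as a lower bound computed from this threshold. The median level of an array lay between 2.78 and 3.17. The difference between the 3′ and 5′ probe sets of Gapdh, which grows as RNA is degraded, was 0.98 in PBS_2013. It was 1.17, 2.23, 1.20 and 0.99 in UT_2013 replicates 1, 2, 3 and 6, 1.31 and 2.77 in UT_2012, 2.46 and 3.33 in PBS_2010 and 2.01 in PBS_2008. The tests were made over 11630 genes with limma at a Benjamini-Hochberg adjusted p under 0.05. The p-values measure the spread between arrays, and the lone PBS array of a year was assumed to vary like the other groups.

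The comparison of PBS_2013 with UT_2013 asks what the injection control alone looks like. The mean of microglia identity genes of the PBS_2013 array lay inside the range of the untreated arrays, and 23 genes passed the test, all of them higher with PBS (0.198% of the tested genes). No gene was lower at this threshold (0%). The 23 genes were dim: in 15 of them all 4 UT_2013 arrays lay near the floor, and in 19 all 4 lay under 3, while 509 of all 11630 tested genes (4.38%) had all 4 near the floor. Of the 23, 6 passed the filter on the mean level only through the PBS_2013 array itself, among them Ppfia2, S100a8 and Gng4, so they had to differ, and 17 passed it without that array. By limma without adjustment 342 genes had p under 0.05, 286 higher and 56 lower, while 5% of the tested genes is 581.5. A change of more than 1 log2 in either direction was seen for 19.63% of the genes, and the median difference over all genes was 0.04. As a scale for differences between years without injection, UT_2012 against UT_2013 gave 0 higher (0%) and 0 lower genes (0%), with 792 at an unadjusted p under 0.05, and 21.23% of genes differed by more than 1 log2. Over all probe sets the mean Pearson correlation of PBS_2013 with the UT_2013 arrays was 0.955, and that of each UT_2013 array with the others lay between 0.932 and 0.952.

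**Figure D1:**
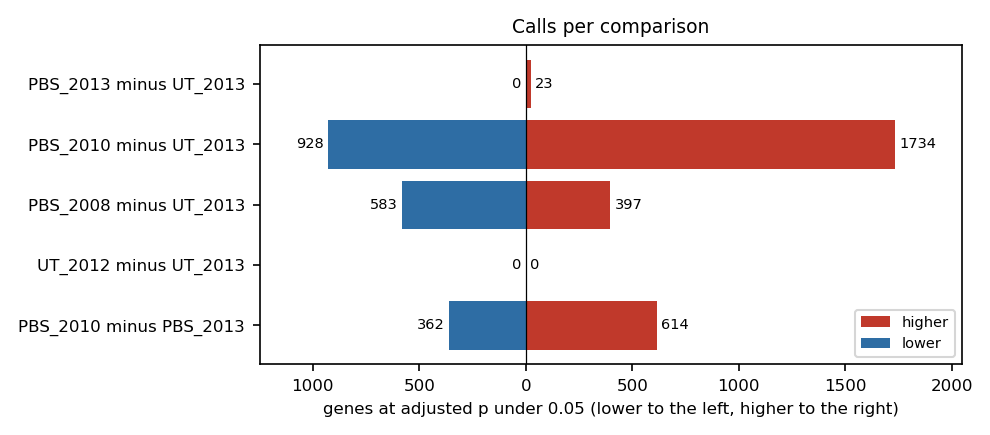
Bars give the number of genes at an adjusted p under 0.05 (limma) in each comparison of PBS and UT arrays, lower genes to the left of 0 and higher genes to the right. PBS_2013 gave 23 higher and 0 lower genes, against 1734 and 928 for PBS_2010 and 397 and 583 for PBS_2008, which differ from UT_2013 in year as well.

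Prrg2, a transmembrane protein with a gamma-carboxyglutamate domain, had the highest level among the 23. It stood at 11.31 in PBS_2013 and at 3.59, 3.16, 4.73 and 3.56 in the UT_2013 arrays, a difference of 7.55 ± 0.83 (SE, 1 against 4 arrays, limma adjusted p = 0.00138). The other PBS arrays were at 2.34 and 3.12 (PBS_2010) and 4.43 (PBS_2008), inside or below the UT range, so the high value was seen in 1 of 4 PBS arrays. Dbndd1, a dysbindin domain protein, was at 7.55 with all UT_2013 arrays at 2.19 (5.36 ± 0.52, adjusted p = 0.000543, at least 33.3-fold higher). Mutyh, a DNA glycosylase that removes adenine mispaired with oxidized guanine, was at 7.19 against 2.44 to 2.46 (4.74 ± 0.54, adjusted p = 0.00162, at least 26-fold higher). It was 2.46 in all other PBS arrays. Sec22a, a protein of vesicle transport at the endoplasmic reticulum, reached 7.92 against 3.43, 3.44, 2.95 and 3.33 (4.63 ± 0.55, adjusted p = 0.00216). Tube1, the epsilon tubulin of centrioles, was 5.76 against 2.20, 2.19, 2.19 and 2.51 (3.49 ± 0.47, adjusted p = 0.00708). Its other 2 probe sets showed no such rise: with the most variable probe set of the gene the difference was −0.24. Rmdn2, a microtubule-associated protein, stood at 4.23 with every UT_2013 array at 2.19 (adjusted p = 0.00397, at least 3.33-fold higher), and at 7.48 in LPS_2013.

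Another part of the 23 was shared with PBS_2010 and includes genes known from neurons. Of those named here, Ppfia2 and Gng4 passed the filter on the mean level only through PBS_2013, so they had to differ. Pcsk5, Ppfia2 and Gng4 would also have failed this filter without the PBS_2010 arrays. Their high PBS_2010 values are therefore no independent support for sharing. Pcsk5, a proprotein convertase that cleaves secreted precursors, was 5.64 in PBS_2013, 5.85 and 5.84 in PBS_2010 and 2.19 in PBS_2008 and in all 6 UT arrays (3.45 ± 0.27, adjusted p = 6.06e-05, at least 8.85-fold higher). Ppfia2, liprin-alpha-2, a scaffold of presynaptic active zones, was 5.72 in PBS_2013 and 3.64 and 3.77 in PBS_2010, with all UT arrays at 2.19 (3.52 ± 0.27, adjusted p = 6.06e-05, at least 9.34-fold higher). Ly6h, a brain-enriched Ly6 family protein that binds nicotinic receptors, stood at 4.78 and at 3.52 and 3.78 in PBS_2010, against 2.19 to 2.38 in UT_2013 (adjusted p = 0.000949, at least 4.89-fold higher). LPS_2013 was at 4.78 for this gene as well. Gng4, a G protein gamma subunit found in neurons, was 4.92, with PBS_2010 at 4.24 and 2.96 and all UT arrays at 2.19 (adjusted p = 0.00907, at least 5.39-fold higher). Morc4, a nuclear ATPase that reads histone marks, was 6.95 in PBS_2013 and 6.06 and 5.96 in PBS_2010, against 2.45, 2.23, 2.23 and 2.34 in UT_2013 and 3.84 and 3.93 in UT_2012 (4.64 ± 0.52, adjusted p = 0.00149, at least 21.9-fold higher). Across the 23, both PBS_2010 arrays lay above the UT_2013 range for 13 genes and PBS_2008 reached the threshold for 9. LPS_2013 reached it for 15, and PBS_2013 exceeded all 9 other arrays of its year for 19. For the PBS_2010, PBS_2008 and LPS_2013 counts the share of all tested genes is not given here, so no excess can be read. By the test, a different criterion, 14.9% of all tested genes were higher in PBS_2010 than in UT_2013. The 19 follows in part from choosing the genes by a high PBS_2013 value.

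S100a8, a calcium-binding protein abundant in neutrophils and monocytes, was 5.17 in PBS_2013 and 2.20, 2.19, 2.20 and 2.38 in UT_2013 (2.93 ± 0.30, adjusted p = 0.000742, at least 6.39-fold higher). It was also low in the remaining controls, at 2.22 and 2.20 in PBS_2010, 2.83 in PBS_2008 and 2.48 and 2.27 in UT_2012. Its partner S100a9, looked up after this value was seen, was at 2.19 in PBS_2013 and was too dim for the test. Of the 14 blood monocyte and granulocyte markers on the array, 4 were tested and 9 lay near the floor in all 10 arrays, among them Ngp, Camp, Ltf, Elane and Mpo. The mean of the 4 tested markers was 4.37 in PBS_2013 against 3.08 to 4.02 in UT_2013. This mean includes S100a8, which passed the filter on the mean level only through PBS_2013 and so had to differ. Of these 4, 3 lay above every UT_2013 array (S100a8, Ccr2 and Cxcr2) and Plac8 lay below the UT_2013 mean, and S100a8 alone passed the test.

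**Figure D2:**
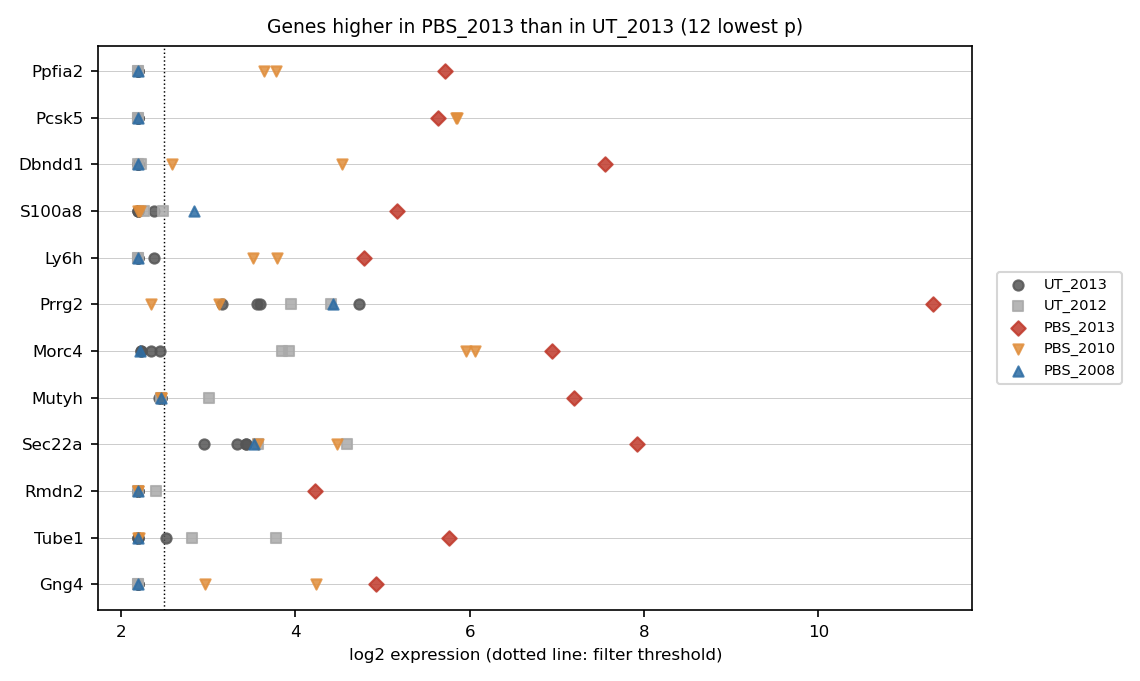
The log2 expression level (horizontal axis) of the 12 named genes with the lowest p among those higher in PBS_2013 than in UT_2013, 1 row per gene and 1 point per array, with the filter threshold of 2.49 as a dotted line. PBS_2013 stands to the right of every UT array in each row, while the PBS_2010 arrays stand above the UT arrays for Pcsk5, Ppfia2, Ly6h, Gng4, Morc4 and Dbndd1 and PBS_2008 does so for S100a8 alone.

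Other probe sets bear on these calls. Of the 23 genes, 14 had 1 or more further probe sets, 23 in all, of which 17 lay near the floor in PBS_2013 and all 4 UT_2013 arrays. A higher value in PBS_2013 than in all UT_2013 arrays was seen for 4 of them. Those of Ppfia2 and Slc14a1, at 2.35 and 2.31, lay near the floor, where values have no order. The others were both of Rmdn2, at 4.11 and 2.57 against 2.19 in each UT_2013 array. Of the 4, only the 1 at 4.11 was more than 1 log2 higher than the UT_2013 mean. None of the 23 genes had a mean level over all arrays at or above the 60th percentile (0 genes), and with that stricter filter the comparison gave 0 calls. Without a filter it gave 143, and with arrays of that year alone it gave 55. With condition and year as additive terms over all 18 arrays the PBS minus UT term gave 8, all higher.

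Among genes lower in PBS_2013 the lowest p belonged to Kdm5d, a histone demethylase encoded on the Y chromosome. It was 3.61 in PBS_2013 and 8.57, 8.03, 8.18 and 9.94 in UT_2013, a difference of −5.07 ± 0.93 (SE, limma adjusted p = 0.0624) that missed the threshold. Its other probe sets were lower in PBS_2013 than in each UT_2013 array too, at 3.89 against 5.39 to 7.55 and at 3.61 against 5.89 to 7.85. Eif2s3y, a translation factor subunit on the Y chromosome, was 7.90 against 10.48, 11.08, 8.67 and 11.41, and Uty, another Y-linked demethylase, was 2.20 against 5.18, 4.57, 2.50 and 3.57. Xist, the RNA that coats the inactive X chromosome, was 13.62 in PBS_2013, above the UT_2013 values of 12.49, 10.72, 13.36 and 2.21. PBS_2010 was the reverse: Xist was 2.21 and 2.21, near the floor, and Kdm5d was 10.68 and 11.67. PBS_2010 differed from PBS_2013 by −11.42 ± 3.20 for Xist (adjusted p = 0.0469) and by 7.56 ± 1.01 for Kdm5d (adjusted p = 0.000551). UT_2013 replicate 6 also had Xist at 2.21, while PBS_2008 had 12.01 and UT_2012 11.67 and 13.47. For all PBS against all UT without year the differences were 0.90 for Kdm5d and −3.14 for Xist, opposite in sign to those of PBS_2013. Sex-linked genes therefore separated arrays within each control, and the sex of the pooled embryos is unknown in the labels. Its part in other differences was not tested.

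The remaining genes named as lower did not pass the test either. Nif3l1 was 3.13 against 6.65, 8.07, 7.11 and 6.80 (adjusted p = 0.285), but LPS_2013 was also low at 2.93. Lrba, a protein that keeps CTLA4 from lysosomal breakdown, differed by −3.34 ± 0.83 (adjusted p = 0.291). Traf5, an adaptor of TNF receptor signalling, was 4.61 against 7.41, 6.92, 7.56 and 8.74 (adjusted p = 0.397). Cd300a, an inhibitory receptor of myeloid cells, was 9.91 against 11.01, 11.26, 11.25 and 10.93 (adjusted p = 0.675). Mblac2, Lonrf3 and Ecpas had differences of −2.45 ± 0.61, −3.65 ± 0.97 and −1.14 ± 0.33 (adjusted p = 0.292, 0.389 and 0.572). For Ecpas, a proteasome scaffold, the further probe sets did not share a direction.

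As a count without a test, PBS_2013 lay above all 4 UT_2013 arrays for 2253 genes (19.4%) and below all of them for 1275 (11.0%). It did so by more than 1 log2 for 375 and 101 genes. These shares are the background for the gene groups below, in which 1 lone array is set against the range of 4.

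The mean level of microglia identity genes in PBS_2013 lay inside the UT_2013 range. The mean of 29 identity genes was 13.29 in PBS_2013 and 13.39, 13.33, 13.36 and 13.22 in UT_2013, with 7 genes above and 22 below the UT_2013 mean, 2 above and 3 below its range, 0 called and a median difference of −0.06. Cx3cr1, the gene that carries the sorting reporter, was 13.26 against 13.13 to 13.37, and P2ry12, the purinergic receptor that guides microglial processes, was 13.63 against 13.48 to 13.85. Tmem119, a marker of mature microglia, was 12.17 against 11.16 to 12.27. Csf1r, the receptor for the survival factor CSF1, was 14.92 against 14.86 to 14.99, and Aif1 (Iba1), an actin-bundling protein, was 13.95 against 13.55 to 14.11. Tyrobp, the adaptor DAP12, was 14.43 against 14.41 to 14.55, and Trem2, a lipid receptor that signals through it, was 12.81 against 12.52 to 13.25. All 7 lay inside the UT_2013 range.

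Markers of other cells showed where PBS_2013 stood higher. The mean of 23 neuron markers was 8.67 in PBS_2013 and 8.06, 6.70, 7.95 and 8.05 in UT_2013, with 20 of 23 genes above the UT_2013 mean, 11 above its range, 0 called and a median difference of 1.01, against 0.04 over all genes. Neurod6, a transcription factor of excitatory neurons, was 8.34 against 6.51, 6.66, 6.89 and 6.45, and Neurod1, which drives neuronal differentiation, was 10.47 against 9.31, 8.07, 9.19 and 9.60. Dcx, the microtubule protein doublecortin of young neurons, was 10.88 against 10.57, 9.21, 10.93 and 10.20, and Tubb3, neuronal tubulin, was 13.05 against 12.44, 11.61, 12.68 and 13.13, both inside the range. The untreated arrays themselves were spread: UT_2013 replicate 2 was the lowest of its year, and both UT_2012 arrays were lower still, at 6.36 and 6.38. LPS_2013 stood at 8.14, between PBS_2013 and the UT_2013 arrays. The mean of 17 progenitor and radial glia markers was 7.89 against 7.31, 6.68, 7.11 and 7.16. Of these genes 13 lay above and 4 below the UT_2013 mean, with 8 above the range, 0 called and a median difference of 0.71. LPS_2013 had nearly the same list mean, 7.88, and DAP12KO replicate 2 was at 7.66. Fabp7, the brain lipid-binding protein of radial glia, was 12.92 against 12.33, 11.60, 11.92 and 12.30, and Pax6, a transcription factor of dorsal progenitors, was 7.34 against 5.52, 2.87, 3.71 and 5.58. Eomes, which marks intermediate progenitors, was 9.18 against 7.80, 6.10, 7.15 and 7.59.

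Border macrophage markers were also at the upper end in PBS_2013. The mean of 11 genes was 10.42 against 8.40 to 10.27, with 6 above the range, 0 called and a median difference of 0.65. Lyve1, a hyaluronan receptor of perivascular and meningeal macrophages, was 12.92 against 9.84, 8.81, 11.89 and 12.16. Mrc1, the mannose receptor, was 13.57 against 12.72, 12.39, 13.38 and 13.18, F13a1, a subunit of clotting factor XIII, was 12.32 against 9.26, 9.28, 10.96 and 11.16, and Pf4, a platelet chemokine that these macrophages express, was 13.81 against 12.17, 11.28, 13.27 and 13.77. UT_2013 replicates 3 and 6 lay closer to PBS_2013 than replicates 1 and 2 did for each of these 4 genes. Cd163, a haemoglobin scavenger receptor, showed the same split, at 10.26 against 6.41, 3.82, 9.83 and 10.73.

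The mean of 6 astrocyte markers was 6.86 in PBS_2013 and 5.90, 6.40, 5.73 and 4.73 in UT_2013, with 4 above, 1 below and 1 (Aldh1l1) at the UT_2013 mean, 2 above its range, 0 called and a median difference of 1.03. Meningeal markers were mostly dim in both. Ptgds, the prostaglandin D synthase of the leptomeninges, was 5.46 in PBS_2013 and 2.19 in all 6 UT arrays (3.26 ± 0.59, adjusted p = 0.0591, at least 7.8-fold), which missed the threshold. Of the 12 meningeal and fibroblast markers on the array, 9 lay near the floor in all 4 UT_2013 arrays, and Col3a1 and Col1a2, fibrillar collagens, were at 2.19 in PBS_2013. Atp1b2, a sodium pump subunit of astrocytes, was 8.36 against 4.32, 3.62, 3.92 and 3.33 (4.56 ± 1.33, adjusted p = 0.585), while Gfap was 2.47, and in UT_2013 reached 9.49 in replicate 2 alone, with the others at 2.19. Endothelial, pericyte, oligodendrocyte, choroid plexus and erythroid lists had 0 calls, with medians between −0.30 and 0.13 over 3 to 7 tested genes each, and so had 11 interneuron genes (median −0.03) and 2 lymphoid and mast cell genes. Ttr, the choroid plexus transthyretin, ranged widely among untreated arrays, at 11.10, 7.25, 8.67 and 8.57 in UT_2013 and 4.09 and 12.19 in UT_2012, and was 10.31 in PBS_2013. Hba-a2, an alpha globin of red cells, was bright everywhere, 12.69 against 12.30 to 12.81, and the embryonic globin Hbb-y was near the floor. In RNA of a sorted population, fewer cells of a type and less RNA per cell cannot be told apart.

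**Figure D3:**
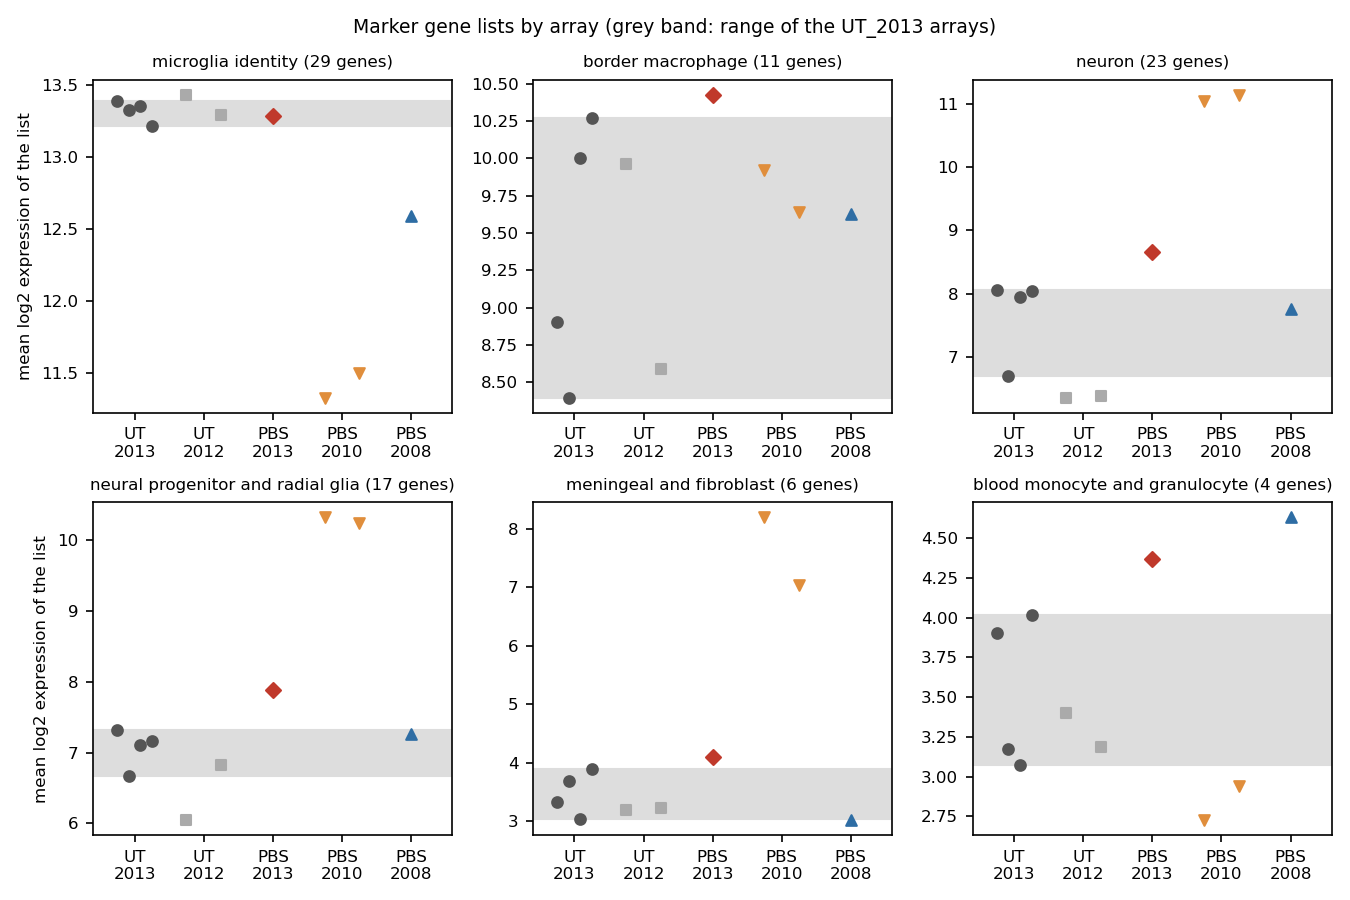
Each panel gives the mean log2 level of a marker list (vertical axis, own scale per panel) in the 4 UT_2013, 2 UT_2012, 1 PBS_2013, 2 PBS_2010 and 1 PBS_2008 arrays, 1 point per array, with the UT_2013 range as a grey band. PBS_2013 lies inside the band for microglia identity and above it for the other lists shown, while PBS_2010 is lowest for microglia identity and highest for neuron, progenitor and meningeal markers.

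Genes that handling, stress or inflammation of the mother could move showed no call in PBS_2013. Of 16 glucocorticoid response genes, 12 were above and 4 below the UT_2013 mean, 3 lay above its range, and the median difference was 0.39. Fkbp5, a chaperone induced by glucocorticoids, was 9.66 against 9.75, 8.65, 9.34 and 8.62, and Tsc22d3 (GILZ), another classical target, was 9.33 against 7.67, 7.86, 6.68 and 9.72. Hif3a, induced by glucocorticoids in several tissues, was 9.65 against 6.89, 5.65, 8.51 and 7.32 (2.56 ± 1.21, adjusted p = 1). Klf9 stood the other way, at 2.72 against 4.73, 2.30, 7.21 and 5.81. Of 22 immediate early genes, 8 were above and 14 below the UT_2013 mean, with a median of −0.16, and Fos was 13.11 against 12.59, 13.10, 13.22 and 13.45. Nr4a1, an orphan receptor induced within minutes of stimulation, was 4.56 against 5.75, 8.64, 6.61 and 8.36. The UT_2012 arrays had the highest immediate early means among these controls, 11.18 and 11.14 against 10.06 to 10.54 in UT_2013 and 10.07 in PBS_2013, with 20 of 22 genes above the UT_2013 mean and 0 called.

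Inflammatory genes gave a median of 0.01 over 24 tested members, 12 above and 11 below the UT_2013 mean, with 0 called. Tnf was 2.82 against 2.86, 2.69, 3.39 and 3.51, Il1b was 6.05 against 5.35, 2.88, 8.97 and 4.66, and the chemokine Ccl4 was 11.16 against 11.61, 12.01, 12.47 and 12.49. Il6, Il10 and Nos2 lay near the floor in all 10 arrays. Ptx3, a secreted pattern recognition molecule, was 4.40 against 2.21, 2.19, 2.19 and 2.44 (2.14 ± 0.40, adjusted p = 0.0698, at least 3.74-fold), short of the threshold. Type I interferon genes gave a median of 0.12 over 18 members. Here UT_2013 replicate 6 had a mean of 8.63 against 5.95 to 6.35 in the other arrays of its group, and PBS_2013 was 7.06. Rsad2 (viperin) shows the pattern, at 7.56 in PBS_2013 and 4.76, 3.11, 4.11 and 8.41 in UT_2013. Antigen presentation, complement, disease-associated microglia and lysosome lists had medians of 0.01, −0.13, −0.08 and 0.04, and 0 calls.

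Cell cycle, stress and metabolic groups were likewise without a call in PBS_2013. Medians were −0.03 over 19 mitosis genes, −0.09 over 20 DNA replication genes, 0.05 over 20 genes of oxidative phosphorylation, 0.08 over 15 heat shock genes, 0.16 over 16 hypoxia and glycolysis genes and −0.14 over 12 apoptosis genes. Mki67, the proliferation antigen, was 13.33 against 13.77, 13.48, 13.91 and 13.84. Genes of cholesterol synthesis and efflux had a median of 0.32, with 13 of 15 above the UT_2013 mean, 5 above its range and 2 below. Fdft1, squalene synthase, was 10.31 against 9.28, 9.17, 9.14 and 9.08 (1.14 ± 0.63, adjusted p = 1), and Msmo1, a methylsterol oxidase, was 7.98 against 6.23, 4.52, 5.96 and 6.06. Fdft1 in PBS_2010 was 12.03 and 11.67 and in PBS_2008 4.33, so the PBS arrays of other years lay on opposite sides of UT_2013.

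**Figure D4:**
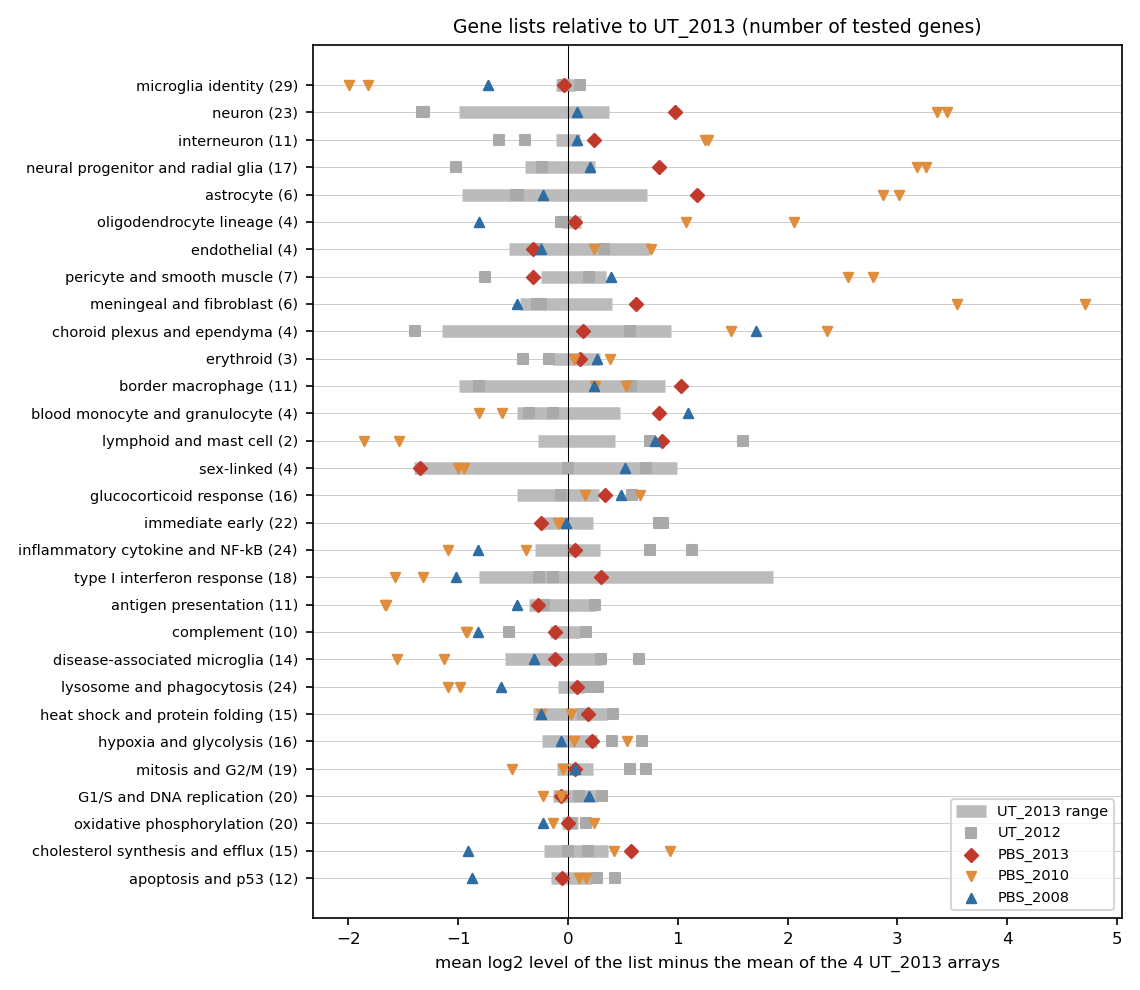
For each of the 30 gene lists (rows, with the number of tested genes), points give the mean log2 level of an array minus the mean of the 4 UT_2013 arrays (horizontal axis), and the grey bar is the range of those 4 arrays. PBS_2013 stays near the grey bar in most lists, while both PBS_2010 points lie more than 3 above that mean for neuron, progenitor and meningeal markers and below the bar for microglia identity.

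The PBS_2010 arrays differ from UT_2013 in treatment and in year, and these cannot be told apart. Against UT_2013, 1734 genes were higher (14.9%) and 928 lower (7.98%) in PBS_2010, with a median difference of 0.14 over all genes. Neuron, progenitor, astrocyte and meningeal markers were mostly higher, and microglia identity genes mostly lower. Of the 1734, 250 (14.4%) had all UT_2013 arrays near the floor, 204 passed the filter only through the PBS_2010 arrays (among the genes named below, Gpr173, Gpc6, Hrk, Rps6ka6, Olig1 and Cldn5) and 1530 without them. The median size of a called difference was 3.08 for higher and 2.14 for lower genes. The 2 PBS_2010 arrays correlated with each other at 0.980 over all probe sets, and whether they are fully independent was not tested. Dropping either of them left 1544 or 1615 calls.

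Of the 29 microglia identity genes, 25 were lower in PBS_2010, all 29 lay below the UT_2013 mean and the median difference was −1.44. The list mean was 11.33 and 11.50, against 13.22 to 13.39 in UT_2013 and 12.68 and 12.43 in LPS_2010. Trem2 was 6.22 and 7.27 against 13.25, 12.52, 13.23 and 12.81, −6.21 ± 0.38 (SE, 2 against 4 arrays, limma adjusted p = 3.87e-07). Cx3cr1 itself was 10.86 and 10.75 against 13.13 to 13.37 (−2.46 ± 0.19, adjusted p = 2.09e-06). Siglech, a sialic acid-binding receptor of microglia, was 10.66 and 10.34 against 14.01, 13.59, 14.13 and 13.79, and Sirpa, the receptor that reads CD47, was 11.62 and 11.84 against 14.55, 14.28, 14.66 and 14.39. Itgam (CD11b) was 5.34 and 6.69 against 11.06, 11.30, 11.24 and 10.66, Csf3r, the G-CSF receptor, 5.36 and 5.64 against 11.15, 11.06, 11.31 and 10.47, and Unc93b1, the escort of endosomal Toll-like receptors, 4.84 and 6.73 against 12.60, 12.56, 12.68 and 11.99. Lgals3bp, a secreted galectin-binding protein, was 5.66 and 6.62 against 12.09, 11.77, 11.80 and 12.41. The size differed across the list: Csf1r differed by −0.45 ± 0.10, Tyrobp by −0.49 ± 0.14 and Aif1 by −0.13 ± 0.19 (adjusted p = 0.00712, 0.0229 and 0.695). Border macrophage genes stood differently: 9 of 11 lay above and 2 below the UT_2013 mean, with 1 called lower, Stab1 (−1.64 ± 0.25), and a median of 0.38.

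Genes of several immune functions were lower as well. Of 24 lysosome and phagocytosis genes 16 were lower (median −1.02), such as Ctsz, a cathepsin, at 14.52 and 14.34 against 15.22 to 15.47 (adjusted p = 0.000114). Of 11 antigen presentation genes 7 were lower (median −1.61), among them B2m, the light chain of MHC class I, and Cd86, a costimulatory ligand (−0.87 ± 0.12 and −1.62 ± 0.29). Interferon genes gave 4 lower of 18 (median −1.42), with Bst2 (tetherin) at 7.10 and 6.30 against 10.55, 8.64, 10.16 and 10.59, and the complement list gave 4 lower and 1 higher of 10. Inflammatory genes split, with 3 higher and 9 lower of 24. Ccl4 was 8.86 and 6.64 against 11.61, 12.01, 12.47 and 12.49 (adjusted p = 0.00036), while Ptx3 was 8.30 and 8.36 against 2.21, 2.19, 2.19 and 2.44 (adjusted p = 1.09e-07, at least 57-fold higher). Mitosis, DNA replication and oxidative phosphorylation gave at most 1 call in each direction, of 19, 20 and 20 genes.

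Markers of neural and meningeal cells were mostly higher in these arrays than in UT_2013. Of 23 neuron markers 19 were higher, all 23 lay above the UT_2013 mean and the median difference was 3.55. The list mean was 11.05 and 11.14, against 6.70 to 8.06 in UT_2013, 8.67 in PBS_2013 and 9.42 and 9.48 in LPS_2010. Nefl and Nefm, neurofilament chains, were 7.07 and 6.97 and 6.50 and 7.10, with all 6 UT arrays at 2.19 for both. Neurod6 was 11.74 and 11.86 against 6.51, 6.66, 6.89 and 6.45, and Dcx was 13.15 and 13.50 against 10.57, 9.21, 10.93 and 10.20. Progenitor markers gave 13 higher and 1 lower of 17 (median 3.51): Sox9, a regulator of glial fate, was 8.30 and 8.04 against 2.44, 2.19, 2.44 and 2.55, and Slc1a3, a glutamate transporter of radial glia, was 11.55 and 10.61 against 6.84, 4.97, 4.97 and 6.34. Olig1, a transcription factor of oligodendrocyte precursors, was 8.65 and 8.77 against 2.24 to 2.54 (adjusted p = 2.02e-08). Of the 4 tested oligodendrocyte lineage genes it was the 1 that was higher, and 1 was lower: Cnp, a myelin-associated phosphodiesterase, was 9.23 and 9.04 against 11.20 to 11.67 (−2.22 ± 0.33, adjusted p = 0.000479). Interneuron genes gave 6 higher and 1 lower of 11, with 8 above and 3 below the UT_2013 mean (median 1.12). Among them Gad2, which makes GABA in interneurons, was 7.65 and 7.09 against 4.90, 2.19, 2.20 and 2.20. Gpr173, Gpc6, Ncam2 and Hrk, genes of neural cells of which Ncam2 is an adhesion molecule and Hrk a promoter of apoptosis, were between 7.19 and 8.02 in PBS_2010 and near the floor in UT_2013, PBS_2013 and PBS_2008, at least 43.8, 36.8, 41.3 and 27-fold higher in PBS_2010. In LPS_2010 Gpr173, Gpc6 and Hrk were near the floor and Ncam2 was 4.80 and 5.17. Rps6ka6, a ribosomal S6 kinase, was 8.26 and 7.99 in PBS_2010 and 3.45 in PBS_2013, against 2.19 to 2.31 in UT_2013.

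Of 6 astrocyte markers 4 were higher (median 2.15), and of 6 tested meningeal and fibroblast markers 4 were higher, with a median of 4.13. Ptgds was 10.30 and 9.12 with every UT array at 2.19 (7.51 ± 0.46, adjusted p = 3.42e-07, at least 148-fold higher), and the collagens Col3a1, Col1a2 and Col1a1 were 7.79 and 6.20, 7.39 and 6.31 and 6.99 and 5.27. Pericyte markers gave 3 higher of 7, among them Vtn (vitronectin) at 7.09 and 9.26, and Cldn5, the tight junction protein of brain endothelium, was 5.23 and 5.13 against 2.32, 4.10, 2.32 and 2.32 (adjusted p = 0.00173). Cldn5 was the 1 call of 4 endothelial genes, of which 2 lay above and 2 below the UT_2013 mean (median 0.12), Pecam1 and Egfl7 being the lower ones (−0.55 ± 1.63 and −0.66 ± 0.87). Lum, Foxc1, Slc6a13 and Twist1 lay near the floor in all 10 arrays, as did the oligodendrocyte genes Sox10, Mog and Gpr17. The Gapdh 3′ minus 5′ differences of 2.46 and 3.33 in PBS_2010 lay above all UT_2013 values. UT_2012 replicate 4 had a Gapdh difference of 2.77 and a microglia identity mean of 13.29, and UT_2013 replicate 2 had 2.23 and 13.33. PBS_2008 had 2.01 and 12.59, and LPS_2008 had 2.73 and 12.58. The LPS_2010 arrays had Gapdh differences of 2.23 and 2.96 and identity means of 12.68 and 12.43. For actin the 3′ minus 5′ difference was small throughout. It was 0.32 and −0.03 in PBS_2010, −0.21 to −0.09 in UT_2013 and −0.12 and 0.11 in UT_2012. The part of other-cell RNA and of RNA quality in the lower microglia values was not tested.

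PBS_2010 and PBS_2013 share treatment and differ in year, and their difference was tested directly. Compared with PBS_2013, PBS_2010 had 614 genes higher (5.28%) and 362 lower (3.11%). Of the microglia identity genes 17 of 29 were lower (median −1.32), and of the neuron markers 4 of 23 were higher (median 2.16). Meningeal markers gave 4 higher of 6, progenitor markers 5 of 17 and lysosome genes 11 lower of 24. The genes with the lowest p were Gpr173 (5.75 ± 0.30), Gpc6 (5.50 ± 0.32), Ncam2 (5.53 ± 0.34) and Hrk (5.03 ± 0.32) among the higher, and Sirpa (−2.74 ± 0.19), Siglech (−3.25 ± 0.29), Trem2 (−6.06 ± 0.54) and Lgals3bp (−6.00 ± 0.52) among the lower (SE, 2 against 1 arrays, limma adjusted p at most 2.68e-05). PBS_2013 was near the floor for the 4 higher genes, so their differences are to a floor value. Gpr173, Gpc6 and Hrk also passed the filter on the mean level only through the PBS_2010 arrays, so they had to be higher there. The count of 976 calls between PBS arrays of different years stands beside 23 calls between PBS_2013 and UT_2013.

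The single PBS_2008 array also differs from UT_2013 in year, and these cannot be told apart. It gave 397 genes higher (3.41%) and 583 lower (5.01%), with a median of −0.15 over all genes. After quantile normalization between arrays the split was 494 higher and 484 lower, and without a filter on low values it was 1047 higher and 565 lower. Neuron markers had a mean of 7.77 and a median difference of 0.00 (0 higher, 1 lower of 23), and progenitor markers gave 0 calls. Microglia identity genes gave 8 lower of 29 (median −0.59), with a mean of 12.59, close to the 12.58 of LPS_2008. Siglech was 12.66 and 12.53 in these arrays against 13.59 to 14.13 in UT_2013, and Itgam was 7.71 (adjusted p = 0.00343). Csf3r was 5.92 against 11.15, 11.06, 11.31 and 10.47, −5.08 ± 0.47 (adjusted p = 3.17e-05).

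Several genes were bright in PBS_2008 and near the floor in nearly all other controls. Of the 397 higher genes, 61 passed the filter on the mean level only through PBS_2008 itself, and the 6 named next are among them, so that they had to differ and are given as a description of 1 array. The other 336 passed it without that array. Ccr2, the chemokine receptor of inflammatory monocytes, was 8.85, against 2.27, 2.19, 2.19 and 2.63 in UT_2013, 2.72 in PBS_2013 and 2.19 in PBS_2010 and LPS_2008 (6.52 ± 0.28, 1 against 4 arrays, adjusted p = 3.7e-08). Clec4d, a C-type lectin of myeloid cells that recognizes mycobacterial lipid, was 8.08, and Mcpt-ps1, a mast cell protease pseudogene, was 7.87. Col14a1, a collagen of fibrous tissue, was 8.29, Chrm4, a muscarinic receptor, 8.68 and Art1, an ADP-ribosyltransferase, 7.89. The lower bounds against UT_2013 were 72.8-fold for Chrm4, 55.4-fold for Col14a1, 48-fold for Clec4d, 41.5-fold for Mcpt-ps1 and 42-fold for Art1. These 5 stayed near the floor in the other PBS and UT arrays, and in the LPS arrays they did so apart from Art1, which reached 2.57 in 1 LPS array. Plac8, another marker of monocytes, was 2.53 in PBS_2008 against 6.68, 4.67, 3.92 and 7.03 in UT_2013, and S100a8 was 2.83, so the blood cell markers did not move together. Calb2 (calretinin), of the interneuron list, was 10.18 against 3.29, 2.69, 2.69 and 2.45. It was the 1 gene of 11 on that list above the UT_2013 mean, and the other 10 lay below it (median −0.65). The genes with the lowest p among the lower were Plagl2, Zfp638, Mtm1, Ccdc28b, Mxd4 and Mgat4a, with differences of −5.60 ± 0.38, −6.07 ± 0.43, −5.64 ± 0.41, −6.80 ± 0.51, −7.87 ± 0.59 and −6.31 ± 0.49. Mxd4, a repressor of the MYC network, was 3.69 in PBS_2008 and 11.84 in LPS_2008, so the low value was not shared by the other array of that year. Mtm1, the phosphoinositide phosphatase myotubularin, was 6.57 and 9.30, low in both against 12.13 to 12.29 in UT_2013.

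Over all years, 256 genes had all 4 PBS arrays above all 6 UT arrays (2.2%), and 200 had all of them below (1.72%). Year is mixed with treatment in both counts. Atp1b2 had the widest gap: the PBS values were 8.36 in PBS_2013, 9.18 and 9.67 in PBS_2010 and 9.35 in PBS_2008, and the UT arrays ranged from 3.33 to 5.70 with a median of 3.96. Against UT_2013 its PBS_2013 difference was 4.56 ± 1.33 (adjusted p = 0.585), and 1 DAP12KO array reached 7.51. Pxylp1, a xylose phosphatase of proteoglycan synthesis, was 4.56, 8.17 and 7.53 and 9.03 in the same order against 2.46 to 2.55 (adjusted p = 0.0985 for PBS_2013). Kcnq3, a potassium channel subunit that sets neuronal excitability, was 7.11, 9.98 and 9.04 and 7.73 against 3.39 to 5.26. Mapk8ip1, a scaffold of JNK signalling, was 4.55, 8.10 and 8.49 and 8.48 against 2.36 to 2.79. Igsf3, Zfp30, Ccdc120 and Calb2 were between 4.42 and 5.59 in PBS_2013 and at most 3.85 in any UT array. For these 8 genes PBS_2013 was the lowest PBS array for all but Zfp30 and Ccdc120, where PBS_2008 was.

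Among the genes below, Tns1, tensin 1 of focal adhesions, was 4.68 in PBS_2013, 4.51 and 4.91 in PBS_2010 and 2.19 in PBS_2008, against 7.11 to 7.93 in the UT arrays. Tubg1, the gamma tubulin that nucleates microtubules, was 4.99, 5.41 and 3.52 and 4.62 against 6.81 to 9.18. Rdh11, a retinol dehydrogenase, was 4.13, 4.58 and 3.77 and 3.67 against 5.88 to 8.10, but LPS_2013 was 2.64, lower than any PBS array. Ada, adenosine deaminase, was 6.42, 6.30 and 6.77 and 5.78 against 7.77 to 9.88, and As3mt, an arsenic methyltransferase, was 5.23, 4.67 and 3.02 and 3.68 against 6.26 to 8.52. Mlxipl (ChREBP), a glucose-responsive transcription factor, was 9.22 and 8.47 in PBS_2013 and PBS_2008 and 5.46 and 4.02 in PBS_2010, against 10.12 to 11.66. Serpinb6b and Ubxn8 were 8.39 and 6.50 in PBS_2013 and at least 9.56 and 7.93 in the UT arrays. Of the 16 genes named from both directions 0 passed the test of PBS_2013 (limma, smallest adjusted p = 0.0723 for Ccdc120). Of the 16 genes, 8 had further probe sets, 11 in all, and 1 of these 11, of Igsf3, also had all PBS arrays beyond all UT arrays in the same direction. For the other 7 genes (Atp1b2, Pxylp1, Kcnq3, Mapk8ip1, Zfp30, Tns1 and Rdh11) no further probe set separated PBS from UT in that direction. The second probe set of Kcnq3 was 2.63 in PBS_2013 against 2.43 to 7.30 in UT_2013, that of Atp1b2 was 3.98 against 3.98 to 7.27, and that of Rdh11 was 3.39 against 2.89 to 4.17.

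**Figure D5:**
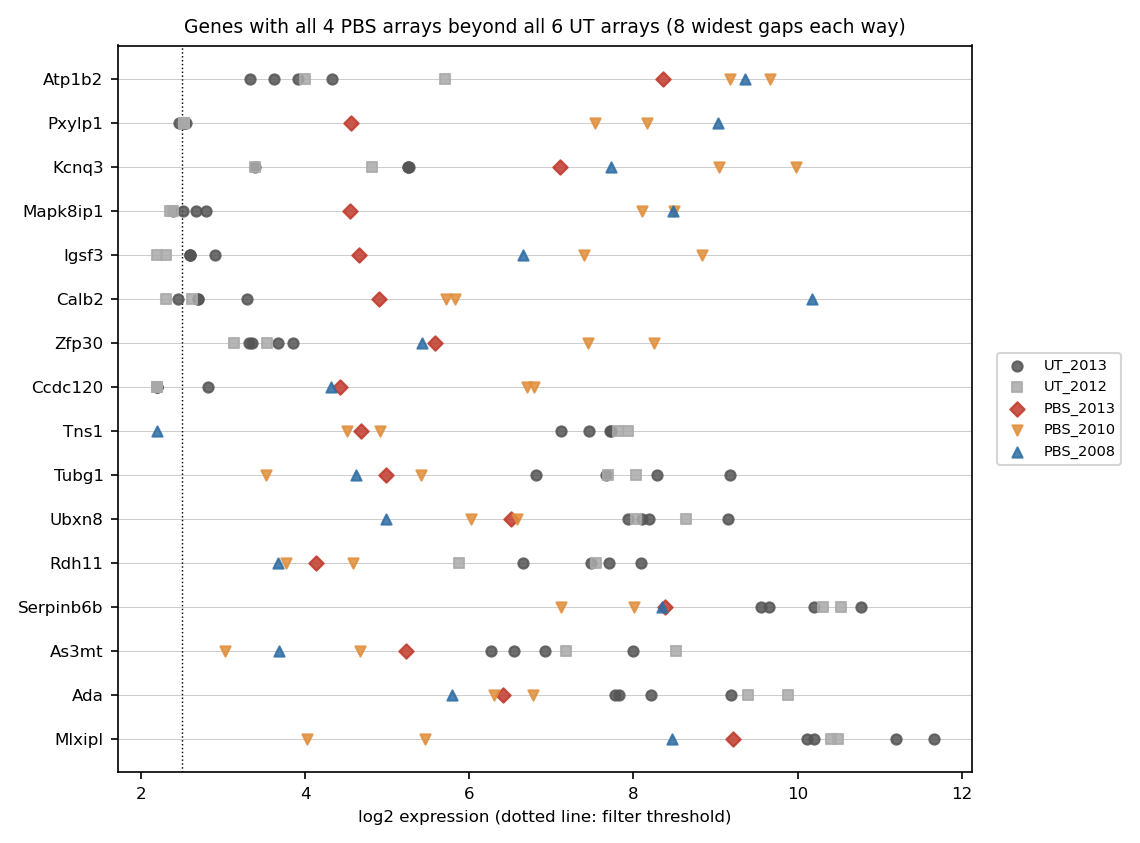
The log2 expression level (horizontal axis) of the 16 named genes in which all 4 PBS arrays lay beyond all 6 UT arrays, 8 above and then 8 below, 1 row per gene and 1 point per array. PBS and UT points do not overlap in any row, by the choice of the genes, and the PBS_2013 point lies nearest to the UT points in 6 of the 8 rows above.

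UT_2012 against UT_2013 compares years without any injection. It covers only those years and gives no scale for PBS_2010 or PBS_2008. Although 0 genes passed, the neuron list was 6.36 and 6.38 in UT_2012 against 6.70 to 8.06, with 21 of 23 genes below the UT_2013 mean and a median of −1.28. Gpm6a, a neuronal membrane glycoprotein, was at most 8.55 against 10.94, 10.87, 10.15 and 10.27, Cd24a, a surface protein of young neurons, 11.11 and 11.45 against 12.83, 12.57, 12.69 and 12.82, and Insm1, a factor of basal progenitors, 4.99 and 7.27 against 9.23, 10.37, 9.12 and 10.03 (adjusted p = 0.267 for each). Elmod1 was 4.10 and 3.24 against 8.89, 9.74, 8.35 and 8.51 (adjusted p = 0.134). For these 4 genes both UT_2012 arrays lay below every UT_2013 array. Best1, a chloride channel, was 9.19 and 8.74 against 3.51, 3.35, 3.85 and 3.51, and it was also 9.91 in PBS_2008. Bcar3, an adaptor of integrin signalling, was 7.21 and 9.01 against 4.21, 4.56, 4.82 and 4.29, Bbs5, a BBSome subunit of cilia, 7.48 and 7.94 against 4.97, 4.80, 4.80 and 4.80, and P3h2, a collagen hydroxylase, 4.58 and 5.46 against 2.74, 2.75, 2.28 and 2.32. Leaving out UT_2012 replicate 3 raised the count from 0 to 82.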

How the data were processed

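RNA from sorted embryonic cells was measured on 18 one-colour expression arrays. The authors deposited 1 table of log2 expression values per probe set, made with RMA per the submitters' processing notes, with the version not given in the sources used here. Raw scans were not analysed here. Array values give no counts, so the number of arrays limits the precision.

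Of 45101 probe sets, 34958 had 1 gene symbol, 932 several and 9211 none in the platform annotation. The brightest probe set stood for each of 18194 genes, and 11630 genes passed a filter at the 40th percentile of the mean level. Groups were condition and label year. limma 3.58.1 (R 4.3.3) fitted 1 mean per group over all 18 arrays with eBayes and an intensity trend, and Benjamini-Hochberg adjustment ran over all tested genes. PBS_2010, PBS_2008, PBS_2013 and UT_2012 were each set against the same UT_2013 arrays, so those comparisons share controls. The fit was tested on simulated data.

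The gene lists and the comparisons were chosen with earlier results of these data known. Of 492 names in 30 lists, 455 had a probe set and 377 were tested. Named genes were those of lowest p per comparison and direction (up to 12 for PBS_2013, 8 where fewer than 6 passed), those with the widest gap between all PBS and all UT arrays, up to 4 of lowest p per list, and a fixed set such as Cx3cr1, Xist and Fkbp5. Genes outside this rule were chosen after their values were seen. Alternatives were other filters, probe set choices, normalization, sets of arrays, model terms, variance priors and leaving out each array.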

Additional observations from a re-analysis of the deposited data

Results flagged for a closer look

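Of 93 sets of 4 to 6 arrays examined, 8 had 1 array far from the others by Dixon's test (8.6%). Chance gives about 1 in 20 for independent sets. These sets share arrays and some genes, and the PBS set mixes years, so the 8.6% cannot be read against that share. The neuron list was lowest in UT_2013 replicate 2, at 6.70, with the other UT_2013 arrays at 7.95 to 8.06. The Gapdh 3′ minus 5′ difference of the same array was 2.23, against 0.99 to 1.20 in the others.

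The mean of type I interferon genes was highest in UT_2013 replicate 6, at 8.63, both among the UT_2013 arrays and among all 6 UT arrays (others 5.95 to 6.63). UT_2013 replicate 3 had the highest mean of oligodendrocyte genes in both sets, at 4.80, with the others at 4.62 to 4.66. UT_2013 replicate 1 had the highest mean of mitosis genes in its group, at 9.97, with the others at 9.65 to 9.70. The mean of complement genes was highest in PBS_2013 among the 4 PBS arrays, at 10.50, with the others, which are of other years, at 9.69 to 9.80. In UT_2013 it was 10.45 to 10.72.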

How the results depend on the processing

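The count of 23 genes for PBS_2013 against UT_2013 became 55 with arrays of that year alone, 0 with the 60th percentile filter, 8 with additive condition and year, 39 with all 6 UT arrays as reference, 331 for all PBS against all UT without year, 43 with the most variable probe set and 143 without a filter. It was 8 among genes with a UT_2013 array above the threshold, an alternative chosen after seeing the data, and 22 to 27 when single arrays were left out. PBS_2010 against UT_2013 gave 1544 to 2577 calls with 1 array left out, the lowest without PBS_2010 replicate 1, and 991 higher and 909 lower genes with the 60th percentile filter. PBS_2008 gave 1612 without a filter and 807 to 1000 with 1 array left out. UT_2012 against UT_2013, with 0 calls, gave 3 with PBS and UT arrays only, 1 with a flat variance prior, 3 with the most variable probe set, 8 without a filter and 0 to 82 with 1 array left out, the 82 without UT_2012 replicate 3. PBS_2010 against PBS_2013 gave 356 with the 60th percentile filter and 735 to 776 with 1 PBS_2010 array left out.

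The 3528 genes with PBS_2013 outside the range of UT_2013 became 1294 against all 9 other arrays of its year and 1162 at a margin of at least 0.5, and 4539 to 4797 with 1 array left out. The 456 genes with all PBS beyond all UT became 105 at a gap of at least 0.5, 828 without both PBS_2010 arrays (chosen after seeing the data) and 503 to 1768 with 1 array left out, of which 1768 without PBS_2013 and 1061 without PBS_2008. Of 3128 alternative values for named genes, 2929 kept direction and side of the threshold, 34 lost and 49 gained the call, and 116 changed sign. The cause was not tested. No paired analysis was possible because PBS and UT arrays of the same year share only 1 replicate number.

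Of the 116 values that changed sign, 80 belonged to a difference under 0.5 in size, and 2 involved a call, those of Tube1 with the most variable probe set and of Kcnj8 without year. Values are differences of PBS_2013 from UT_2013 unless another group is named. Kdm5d became 0.90, Spi1 −1.74, Tmem119 −1.71, Sst −0.17, Gad1 0.30, Gad2 2.30, Dlx2 1.41, Emx2 2.76, Gfap 0.62, Cldn5 1.13 and Kdr 0.44 for all PBS against all UT without year. Notch3 became 0.52, Vtn 2.41, Abcc9 1.59, Kcnj8 2.70, Col3a1 2.13, Fn1 1.26, Col1a2 2.30, Kcnj13 0.93, Alas2 0.45, Stab1 −1.17 and Folr2 −1.56 for all PBS against all UT without year. Cxcr2 became −0.46, Il7r −0.47, Cd79b −1.18, Xist −3.14, Uty 0.13, Klf9 1.46, Fkbp5 −0.54, Rsad2 −0.55, Bst2 −1.50, Rtp4 −0.62 and Cd86 −1.07 for all PBS against all UT without year. Clec7a became −1.53, Xbp1 −1.10, Aldoa −0.60, Higd1a −0.48, Kif11 0.041, Ndufb8 −0.032, Pmaip1 −1.61, Aif1 −0.12, Il1b −1.59 and Fos −0.45 for all PBS against all UT without year. Spi1 became −0.082, Tmem119 −0.26, Gad2 0.30, Dlx2 0.93, Emx2 0.90, Cldn5 0.27, Kdr 0.11, Kcnj8 0.93, Rgs5 −0.99, Fn1 0.74 and Col1a2 0.18 with additive condition and year. Folr2 became −0.36, Nfkbia −0.12, Cd86 −0.45, Ddit3 −0.18, Pmaip1 −0.47, Aif1 −0.11 and Fos −0.32 with additive condition and year. Gad2 became 0.20, Dlx2 0.33, Emx2 0.59, Kdr 0.010, Plac8 0.068, Cd79b −0.38, Nfkbia −0.056, Aif1 −0.020, Il1b −0.27 and Fos −0.25 with all 6 UT arrays as reference. Tube1 became −0.24, Ecpas 1.11, Cx3cr1 0.15, Cd86 −0.26, C1qb 0.078, Ctsz 0.26, Ddit3 −1.64, Mcm4 0.17, Mdm2 0.67 and Csf1r 0.027 with the most variable probe set. Gad2 became 0.0074, Mbp (PBS_2010) −0.028, Rgs5 −0.12, Alas2 (PBS_2010) −0.11 and Cd79b −0.046 after quantile normalization. With single arrays left out the range was S100a8 (PBS_2010) −0.051 to 0.011, Cx3cr1 −0.049 to 0.032, Gad2 −0.25 to 0.65, Dlx2 −0.13 to 0.11, Emx2 −0.29 to 0.037 and Gfap −2.16 to 0.28. It was Pecam1 (PBS_2010) −1.06 to 0.013, Egfl7 −0.30 to 0.10, Kdr (PBS_2010) −0.015 to 1.59, Kdr −0.15 to 0.044, Abcc9 −1.09 to 0.49 and Rgs5 −0.93 to 0.99. It was Fn1 −1.04 to 0.19, Kcnj13 (PBS_2010) −1.14 to 0.36, Alas2 (PBS_2010) −0.36 to 0.44, Alas2 −0.50 to 0.018, Plac8 −1.03 to 0.0042 and Cd79b −0.11 to 0.18. It was Csf1r −0.041 to 0.0027, Aif1 −0.023 to 0.17, Il1b −0.27 to 1.76 and Fos −0.15 to 0.14.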
